A study of Mus musculus with 3 samples.

Results

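The 9 genes described here mark B cells and plasma cells: Cd79a, Cd79b, Ms4a1, Pax5, Tnfrsf17, Mzb1, Pou2af1, Jchain and Sdc1. They were chosen by name, as every probe of these symbols on the arrays, and each had 1 probe, among 20571 probes of 17349 named genes. RNA came from the mucosa that lines the nose and sinuses (sinonasal mucosa) of C57BL/6 mice aged 6 to 8 weeks. The first group, ECRS_KO, had a knockout of CC10 (the club cell secretory protein, gene Scgb1a1) and allergic eosinophilic chronic rhinosinusitis, an inflammation of the nose and sinuses rich in eosinophils. ECRS_WT had the same disease on a wild-type background, and Control_WT was wild type without it. All 3 groups shared strain, age range and tissue. A knockout group without disease was not analysed here, so the knockout is seen only together with the disease. Each group was a pool of equal RNA from 5 mice on 1 Illumina bead array, so no difference below has a replicate error or a test, and the number of arrays limits the precision.

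B cells carry an antigen receptor made of a surface antibody and the signalling chains encoded by Cd79a and Cd79b. After activation some become plasma cells, which stop presenting antigen, enlarge the endoplasmic reticulum and secrete antibody. In airway mucosa many plasma cells make dimeric IgA, which the J chain (Jchain) links and the epithelial receptor encoded by Pigr carries to the surface. Allergic inflammation of the airways is known for antibody of the IgE class.

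Arrays differed in brightness as a whole. The mean signal over all probes was 465.3 on the array labelled ECRS_KO, 373.4 on ECRS_WT and 295 on Control_WT, and 12508, 11992 and 11428 of 35226 probes were detected on them, at a detection p-value under 0.01. A signal below is the deposited, unscaled intensity, and a level is its log2 value after background correction and quantile normalization, which removes such differences between arrays. The same unscaled signal therefore corresponds to a lower level on the array labelled ECRS_KO. The targeted gene went against the labels. Scgb1a1 had a signal of 597 on the array labelled ECRS_KO, 493 for the one labelled ECRS_WT and 3.32 for the one labelled Control_WT, below the detection limit there. ECRS_KO and ECRS_WT levels lay within 2-fold of each other (log2 difference -0.18, and 0.01 under median scaling), and both were above Control_WT by at least 12.6-fold and 14.3-fold, which was under 2-fold when limma inferred the background (0.74 and 0.86 on the log2 scale). The sources used here do not place the single probe inside or outside the deletion, so its signal does not check the ECRS_KO label. Its place does not bear on the missing signal of the wild-type array labelled Control_WT, and every direction below rests on labels that this gene leaves in doubt. Arrays are named by their labels throughout. Of 10 epithelial markers 7 were detected, and Epcam, Krt8 and Trp63 did not pass the detection limit on any array. Epcam had a signal of -10.4 on both ECRS_WT and Control_WT, which by itself does not show that its RNA was absent. Krt8 and Trp63 were bright, with 2970 and 961 on ECRS_WT and 2090 and 765 on Control_WT, so their failure to pass does not mean that they were absent.

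Among B cell genes, the antigen receptor chain Cd79b was the only one detected on every array. Its signal was 170 on the array labelled ECRS_KO, 171 on that labelled ECRS_WT and 244 on that labelled Control_WT, which gave levels of 7.09, 7.60 and 8.61. The unscaled signals of the 2 disease arrays were nearly equal, and Control_WT was highest on both scales. Cd79a, the partner chain, had signals of 14.9, 8.92 and 24.6 in the same order, and Ms4a1, the B cell membrane protein CD20, had 21.9, 26.4 and 25.8. Both were detected only on the array labelled Control_WT. Pax5, the transcription factor that maintains B cell identity, had signals of 22.7, 21.5 and 5.29 and was not detected on any array.

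Of the 5 plasma cell genes, 3 were detected on every array. Mzb1, a chaperone of the endoplasmic reticulum that helps assemble antibody in plasma cells, had a signal of 349 on the array labelled ECRS_KO, 678 on that labelled ECRS_WT and 691 on that labelled Control_WT. Tnfrsf17, the receptor BCMA that keeps plasma cells alive, had signals of 39.4, 119 and 82.4 in that order. Pou2af1, a coactivator that works with octamer-binding factors and is needed for antibody responses, had 99.2, 151 and 102. The array labelled ECRS_KO was lowest for all 3 of these genes, though the unscaled Pou2af1 signal was close to that of Control_WT. Sdc1, the proteoglycan syndecan-1 of plasma cells and also of epithelial cells, had signals of 124 on ECRS_KO, 127 on ECRS_WT and 39.1 on Control_WT, where it was not detected (detection p-value 0.0523). Jchain was not detected on any array, with signals of -18.0, -12.3 and -14.9. Failure of its only probe to pass does not show that the RNA was absent. In RNA of whole mucosa, fewer cells of a type and less RNA per cell cannot be told apart.

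**Figure D1:**
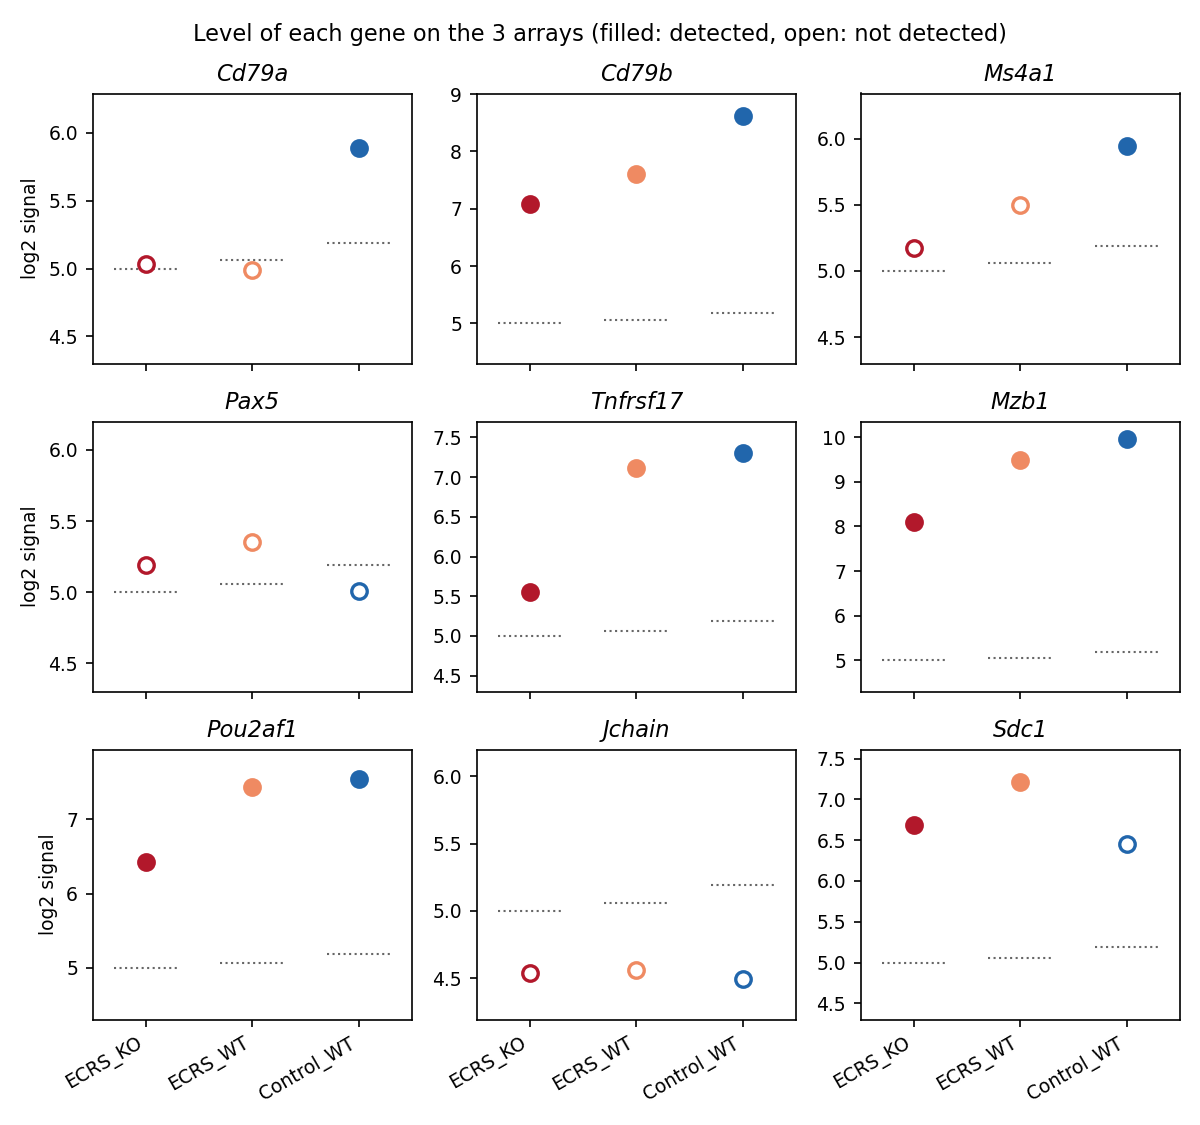
Level of the 9 genes on each array, as log2 signal after background correction and quantile normalization (vertical axis, scaled separately for each gene); a filled point was detected, an open one was not, and the dotted line is that array's lowest level among detected probes. Mzb1 lies at 8.09 on ECRS_KO, 9.48 on ECRS_WT and 9.95 on Control_WT, and Tnfrsf17 at 5.55, 7.12 and 7.30; Pax5 and Jchain are open on all 3 arrays.

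Between the 2 disease arrays, the array labelled ECRS_KO was lower by 2-fold or more in 3 of the plasma cell genes, Tnfrsf17, Mzb1 and Pou2af1. Tnfrsf17 was 2.98-fold lower than on the array labelled ECRS_WT, with a log2 difference of -1.57. Its signal of 39.4 on the array labelled ECRS_KO passed detection narrowly, at a detection p-value of 0.00911 against the limit of 0.01. Mzb1 was 2.62-fold lower (-1.39) and Pou2af1 2.02-fold lower (-1.01). Thus 3 of the 5 measured genes were at least 2-fold lower, beside 2.36% of all 8917 genes measured in this comparison, and none was at least 2-fold higher, beside 4.72%. A gene counts as measured when at least 1 of the compared arrays detected it, and these 5 were detected on both. In the order of all differences from the lowest, Tnfrsf17 ranked 42, Mzb1 65 and Pou2af1 199. Sdc1 was 1.44-fold lower (-0.53) and Cd79b 1.43-fold lower (-0.51), within 2-fold. The median over the 5 was -1.01, against -0.04 over all genes, and Cd79a, Ms4a1, Pax5 and Jchain gave no measured difference. Derl3, a plasma cell marker outside these genes, went the other way, with a log2 difference of 0.55, within 2-fold.

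Between probes of the same gene, log2 differences in this comparison had a pooled SD of 0.29 over 491 genes, a spread that includes no variation between mice. The calls of Tnfrsf17 and Pou2af1 depended on the processing: with limma's own background inference both differed by -0.14, and with the authors' deposited values by -0.64 and -0.53. Tnfrsf17 kept its call under 7 of 9 alternatives and Pou2af1 under 4. Mzb1 remained at least 2-fold lower under 8 of 9, and its difference was -0.87 under limma's own inference. Each of these genes had 1 probe, detected on every array. Alternatives that only average over probes or change the detection filter therefore repeat the reported value and could not lose a call. The 4 that kept the Pou2af1 call were all of this kind. Counts of alternatives given below include such settings too.

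Against the array labelled Control_WT, the array labelled ECRS_KO was lower by 2-fold or more in the B cell gene Cd79b. The plasma cell genes Mzb1, Tnfrsf17 and Pou2af1 were also lower by 2-fold or more, while Pax5 and Jchain were not measured. Mzb1 was 3.64-fold lower (-1.86), Tnfrsf17 3.36-fold (-1.75), Cd79b 2.87-fold (-1.52) and Pou2af1 2.17-fold (-1.12). These 4 of 7 measured genes stand beside 5.67% of 9086 genes at least 2-fold lower, and none was at least 2-fold higher, beside 6.89%. Cd79a was at least 1.82-fold lower and Ms4a1 at least 1.71-fold lower, bounds under the reported processing only, since neither was detected on the array labelled ECRS_KO; under median scaling they differed by -0.70 and -0.56, and with limma's own inference by -0.05 and -0.04. These genes were measured only because Control_WT detected them. Sdc1 was at least 1.17-fold higher. The median was -1.12 over the 7, against -0.11 over all genes, and the pooled SD between probes of a gene was 0.58 over 365 genes. Under limma's own inference only Mzb1 kept its call, with a difference of -1.44, while Tnfrsf17, Cd79b and Pou2af1 differed by -0.17, -0.44 and -0.16. Pou2af1 kept its call under 5 of 9 alternatives.

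Between the arrays labelled ECRS_WT and Control_WT, Cd79b was the 1 gene past 2-fold, 2.01-fold lower on ECRS_WT (-1.01). This was 1 of 7 measured genes beside 1.43% of 8771 genes at least 2-fold lower, and none was at least 2-fold higher, beside 3.74%. Mzb1 was 1.39-fold lower (-0.48), Tnfrsf17 1.13-fold lower (-0.18) and Pou2af1 1.07-fold lower (-0.10); under median scaling Tnfrsf17 and Pou2af1 turned to 0.15 and 0.20. Cd79a was at least 1.79-fold and Ms4a1 at least 1.36-fold lower, both undetected on ECRS_WT, and under median scaling they differed by -0.65 and -0.26. The unscaled Ms4a1 signal was 26.4 on ECRS_WT and 25.8 on Control_WT, so that its lower level on ECRS_WT appeared only after normalization. Sdc1 was at least 1.69-fold higher on ECRS_WT, past 2-fold under median scaling (1.05). The Cd79b call was lost under 4 of 9 alternatives, with -0.85 from the authors' deposited values and -0.35 under limma's own inference. The median was -0.44, which is the Ms4a1 value, against -0.09 over all genes. Cd79a and Ms4a1 were measured here only because Control_WT detected them, and Sdc1 only because ECRS_WT did. Over the 4 genes detected on all 3 arrays the median was -0.33. The pooled SD between probes of a gene was 0.50 over 370 genes. The comparisons share arrays, so their values are not independent of each other.

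**Figure D2:**
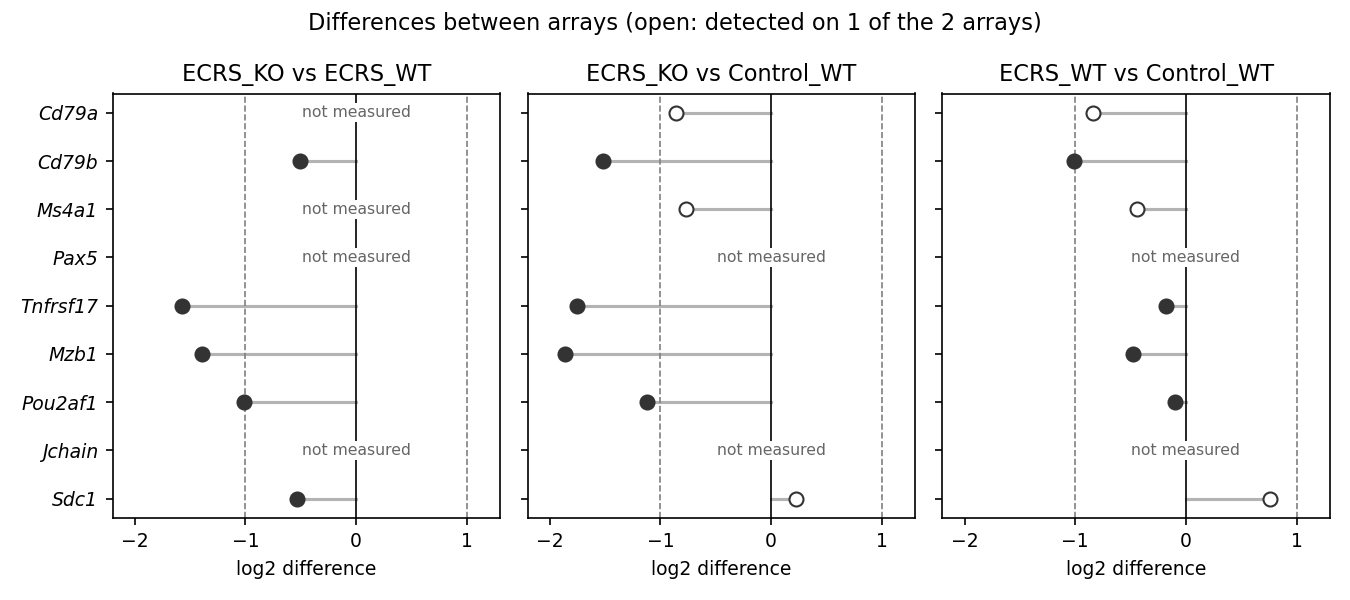
Log2 difference of each gene between 2 arrays (horizontal axis), the array named before vs minus the array after it in each panel title; dashed lines mark 2-fold, and an open point is a lower bound from a gene detected on 1 array only. Tnfrsf17, Mzb1 and Pou2af1 lie left of the 2-fold line in both ECRS_KO panels and right of it in the ECRS_WT panel.

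Promoters of Tnfrsf17 and Pou2af1, a pair of the plasma cell genes lower on ECRS_KO, are shown with that of Cd79a for comparison. RefSeq promoter sequence of assembly GRCm38.p6 was used for 6 of the 9 genes, the others being Cd79b, Ms4a1 and Mzb1, and the 250 bases before the transcript start given there were searched on both strands. For Tnfrsf17 this window lies inside the span annotated for the gene, downstream of its outer start. The octamer ATTTGCAT, bound by the partners of the Pou2af1 protein, was in none of the 6, against 1.6% of 32851 promoters. The element TGACGTGG, known for binding Xbp1 and other factors of the unfolded protein response, was in 1 of the 6, Pou2af1, at 61 bases before the start, against 0.563% of promoters. The E-box CAGGTG, bound by E2A factors of early B cells, was in 1, Cd79a, at 154 bases before the start, against 17.2%. Motif matches are in capitals, on the strand printed, for Tnfrsf17 (chr16:11313559-11313808), Pou2af1 (chr9:51213440-51213689) and Cd79a (chr7:24897247-24897496), all on the plus strand, and Tnfrsf17 has none.
Tnfrsf17: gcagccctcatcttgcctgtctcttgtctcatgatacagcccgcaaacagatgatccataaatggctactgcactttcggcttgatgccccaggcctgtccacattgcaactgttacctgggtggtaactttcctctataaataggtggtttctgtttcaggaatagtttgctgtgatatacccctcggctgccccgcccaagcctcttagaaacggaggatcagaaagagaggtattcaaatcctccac
Pou2af1: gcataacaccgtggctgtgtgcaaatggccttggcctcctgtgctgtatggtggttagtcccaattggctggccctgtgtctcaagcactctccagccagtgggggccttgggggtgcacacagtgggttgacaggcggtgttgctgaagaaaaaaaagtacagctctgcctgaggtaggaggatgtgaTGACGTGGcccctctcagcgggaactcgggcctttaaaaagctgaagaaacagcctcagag
Cd79a: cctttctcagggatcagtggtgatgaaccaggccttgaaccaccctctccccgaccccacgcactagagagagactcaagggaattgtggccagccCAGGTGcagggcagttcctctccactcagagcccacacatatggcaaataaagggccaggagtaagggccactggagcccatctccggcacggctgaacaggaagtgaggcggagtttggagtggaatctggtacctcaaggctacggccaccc

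Further genes linked to the B lineage, called other B lineage genes below, were taken from 7 lists of 107 genes, of which 87 had a probe. The lists also hold genes of other cells, such as Pigr of epithelium and Ccl21a of lymphatic vessels. Their counts and medians therefore do not describe B cells and plasma cells alone. Between the arrays labelled ECRS_KO and ECRS_WT, 49 were measured, 5 were at least 2-fold lower and 1 was higher, beside 2.36% and 4.72% of all genes, with a median of -0.27 against -0.04. Cd74, the invariant chain of antigen presentation, had signals of 2910 on ECRS_KO and 5980 on ECRS_WT, 2.64-fold lower. Ccl21a, a chemokine of lymphatic vessels and lymphoid tissue, had 2930 and 5990, 2.63-fold lower, and its receptor gene Ccr7, which T cells and dendritic cells also express, was 2.05-fold lower with 45.4 and 82.7. Pigr, the epithelial receptor that carries IgA, had 1910 and 2990 and was 2.05-fold lower. Ikzf1, a lymphoid transcription factor, was at least 2.36-fold lower on 1 of its 3 probes, while the other probes were dim and differed by -0.37 and -0.01. Ebf1, a B cell factor also made by olfactory neurons, was 2.01-fold higher, a second probe of it differed by 1.19, and another, not detected on any array, by -0.04. Cd74 and Ccl21a kept these calls under 9 of 9 alternatives and Pigr under 8, against 5 of 9 for Ccr7 and Ebf1 and 4 of 8 for Ikzf1.

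Between those 2 arrays, none of the 9 measured genes of B cell receptor signalling reached 2-fold; their median was -0.69, against -0.04 over all genes, and 8 were below 0. It was -0.23 under limma's own inference and -0.38 with the authors' deposited values. The 10 measured genes of the plasma cell secretory machinery, which fold and export antibody among other secreted proteins, did not reach 2-fold either; their median was 0.07, close to that of all genes, and 8 were above 0. Derl3, of endoplasmic reticulum degradation, had signals of 411 on ECRS_KO and 194 on ECRS_WT, a log2 difference of 0.55. Xbp1, the transcription factor that drives this machinery in plasma cells and other secretory cells, had 18400 on both, a difference of -0.17. Among 8 measured other surface genes the median was -0.36 with 1 lower, among 13 transcription factors -0.13 with 1 lower and 1 higher (0.09 under median scaling), and among 6 survival and homing genes -0.60 with 2 lower. Antibody genes could not be followed. Of 13 genes on that list only Ung and Pigr had a named probe, and neither encodes antibody. Ung was not detected on any array.

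Against the array labelled Control_WT, ECRS_KO had 10 of 50 measured other B lineage genes at least 2-fold lower and 0 higher, beside 5.67% and 6.89% of all genes, with a median of -0.44 against -0.11. They included Cd37 (2.52-fold), a B cell tetraspanin, Ly86 (2.74-fold), which pairs with a receptor for bacterial products, Irf4 (at least 2.68-fold), a factor needed for plasma cells, and Irf8 (at least 2.76-fold). Ikzf1 was at least 3.97-fold lower, Ccl21a 2.27-fold, Vpreb3 2.23-fold, Ccr7 2.22-fold, Fcmr, an IgM receptor, 2.10-fold and Ptpn6, a phosphatase that restrains receptor signalling, 2.06-fold. Fcmr had unscaled signals of 164 on ECRS_KO and 165 on Control_WT, and its difference appeared after normalization. Of these 10 genes Ccl21a kept its call under 9 of 9 alternatives, Vpreb3 under 8, Ly86 and Ptpn6 under 7, and Cd37, Fcmr and Ccr7 under 5. Ikzf1 kept it under 6 of 8 and Irf4 and Irf8 under 5 of 8, with both at -0.11 under limma's own inference. Between ECRS_WT and Control_WT 1 of 49 was higher, the receptor kinase gene Btk (at least 2.11-fold, a call kept under 4 of 8 alternatives), and 1 was lower, Vpreb3 (2.02-fold), beside 3.74% and 1.43% of all genes. These counts are near the background, and the median was -0.19 against -0.09.

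Markers of other cells differed in the same comparisons. Between ECRS_KO and ECRS_WT their counts stand beside 2.36% of all measured genes at least 2-fold lower and 4.72% higher. For ECRS_KO against Control_WT these shares were 5.67% and 6.89%. Between the arrays labelled ECRS_KO and ECRS_WT, 4 of 5 measured T cell markers were at least 2-fold lower (median -1.93), with signals summed over detected genes of 1397 and 2580, and the antigen receptor chains Cd3d, Cd3e and Cd3g differed by -2.14, -2.09 and -1.93 on the log2 scale. Under limma's own inference these were -0.79, -0.65 and -0.77, none of the 4 calls was kept, and the median was -0.72; with no detection filter it was -0.59. Of 7 measured macrophage markers 5 were lower (median -1.30), with sums of 4143 and 8226, and the complement genes C1qb and C1qc differed by -1.77 and -1.53. Epithelial markers had a median of -0.73 with 1 of 7 lower and sums of 10610 and 13210, whereas 8 of 10 olfactory sensory neuron markers were at least 2-fold higher (median 1.61), with sums of 75680 and 29410. The 5 B cell and plasma cell genes detected on each of these arrays summed to 780.8 and 1246. Medians were -0.20 for plasmacytoid dendritic cell markers (1 of 6 lower, Ly6d by -1.61), 0.16 for neutrophil and marrow granulocyte markers (1 of 10 lower, Lcn2 by -1.78) and 0.03 for erythroid markers (0 of 5). Ly6d had a signal of 17100 on the array labelled ECRS_WT, against 49.0 for Siglech of the same list. Whether the Ly6d signal came from plasmacytoid dendritic cells, or the Lcn2 signal from neutrophils, was not tested. Cd4, Cd5, Zap70 and Lat among T cell markers and Itgam among macrophage markers were not detected on any array. Between ECRS_KO and Control_WT the medians were -1.43 for T cell (4 of 5 lower), -0.70 for macrophage (2 of 6 lower) and 2.09 for olfactory sensory neuron markers (7 of 10 higher). They were -0.60 for neutrophil and marrow granulocyte (3 of 10 lower) and -0.72 for erythroid markers (1 of 5 lower). Epithelial markers had -0.58 (0 of 7 lower) and plasmacytoid dendritic cell markers -0.20 (0 of 7 lower). Between ECRS_WT and Control_WT the T cell, macrophage and olfactory sensory neuron medians were -0.12, 0.72 and 0.11. The T cell value turned positive under 2 of 9 alternatives. The part of these cells in the differences above was not tested.

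**Figure D3:**
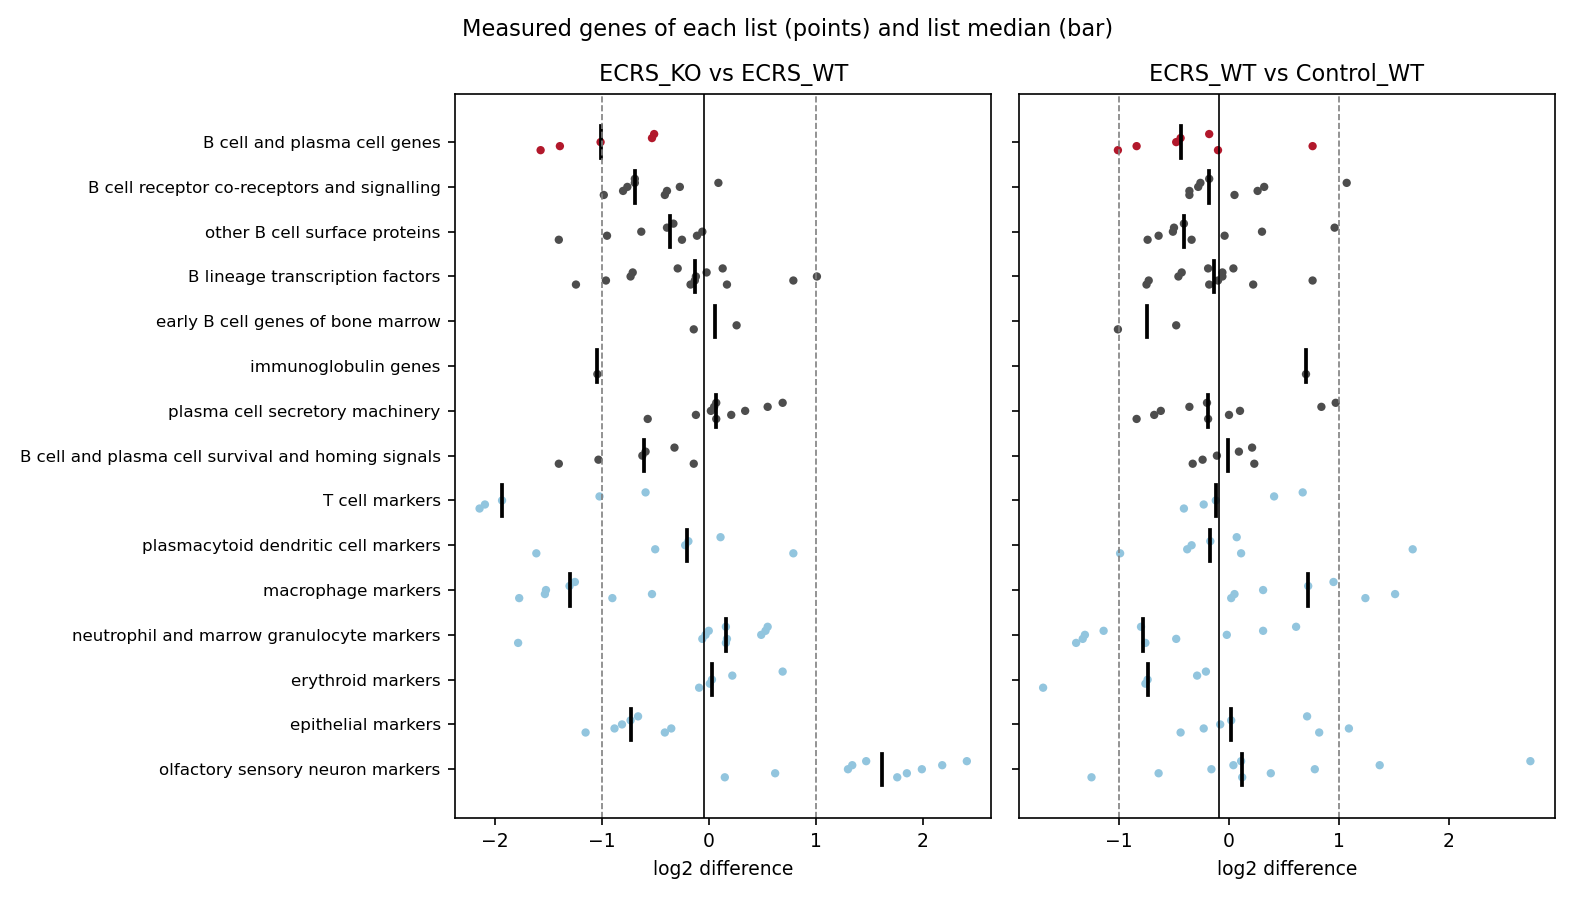
Log2 differences of the measured genes of each list (points) and list medians (bars) for ECRS_KO minus ECRS_WT and ECRS_WT minus Control_WT; the solid vertical line is the median of all genes and dashed lines mark 2-fold. On the left the B cell and plasma cell genes (median -1.01) lie on the side of the T cell (-1.93) and macrophage (-1.30) markers, and olfactory sensory neuron markers (1.61) on the other.

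The 5 genes nearest in pattern to these genes were sought among 7055 other genes detected on all 3 arrays, by the distance from the median of the 7 detected genes in the differences ECRS_WT minus Control_WT (-0.44) and ECRS_KO minus ECRS_WT (-0.53). They were Il3ra (distance 0.0078), Nrip3 (0.013), Mindy2 (0.015), Tcte1 (0.027) and Nkx6-2 (0.028), and 66 genes lay within 0.1. Cd79a and Ms4a1 enter the second difference though neither disease array detected them, so that it lies nearer 0 than the median of the 5 measured genes (-1.01), and the genes named were not sought by their likeness to Tnfrsf17, Mzb1 or Pou2af1. With only 2 differences for each gene, many genes share such a pattern.

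**Figure D4:**
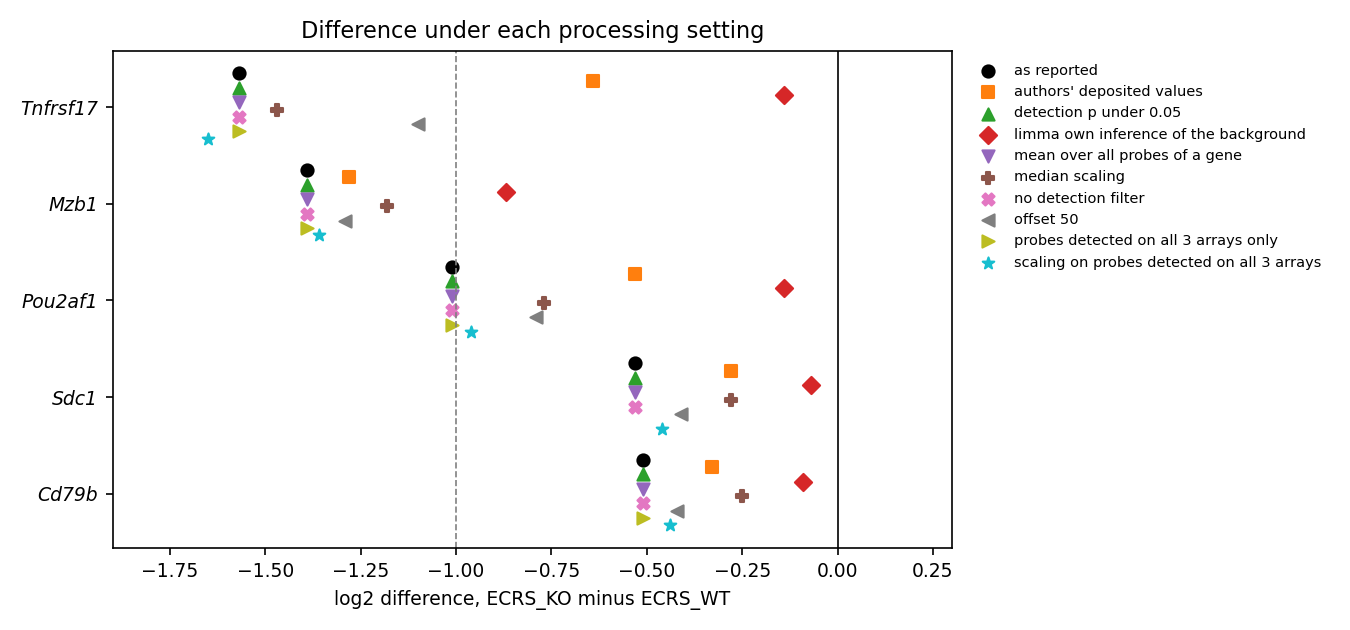
Log2 difference of ECRS_KO minus ECRS_WT for the 5 measured genes under the reported processing and 9 alternatives (symbols); the dashed line marks 2-fold lower. Mzb1 spans -1.39 to -0.87, while Tnfrsf17 spans -1.65 to -0.14 and Pou2af1 -1.01 to -0.14; every symbol lies below 0.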

How the data were processed

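Total RNA of pooled mucosa, labelled as biotinylated cRNA per the labels, was measured on 3 Illumina arrays. For each probe the deposited table gives an intensity (signal) with its detection p-value, per the file headers; some intensities are negative, as after background subtraction. The authors' series table gives a normalized intensity on a linear scale, with medians of 76.7, 76.8 and 77.5 on ECRS_KO, ECRS_WT and Control_WT. BeadStudio is named in the submitters' processing notes, without a version; the genome build is not given in the sources used here.

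Deposited signals were background corrected with limma 3.58.1 (R 4.3.3) by normexp with an offset of 16, quantile normalized and log2 transformed. Negative control means and SDs came from median signals within 100 equal bins of detection p-values. Limma's own inference, which needs that p-value to fall with the signal, is an alternative: 222, 178 and 153 probes with signals over 1000 were not detected on ECRS_KO, ECRS_WT and Control_WT, and it gave SDs of 360.6, 356 and 259.6, against 16.9, 13.7 and 9.23. Probes were detected at p under 0.01. A gene was called at 2-fold or more when detected on the brighter array; undetected on the dimmer one, its level there was the higher of its own and the lowest detected level (5.00, 5.06 and 5.19), and the fold is a lower bound under this background correction and scaling only. The probe with the highest mean level stood for a gene. Platform annotation named 20571 probes with 1 gene, 10 had several and 14645 none; 20525 matched RefSeq names by Entrez identifier.

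With 1 array per group no test was possible. The genes, lists and background setting were chosen with earlier results of these data known. Named genes were all 9, Scgb1a1, up to 3 of each other list at 2-fold or more per comparison by size of difference, and the 5 nearest in pattern. Derl3, Xbp1, Siglech, Ngp, Ltf, Hba-a1 and the list genes named as not detected were chosen after their values were seen. Simulated data served to test the procedure. Their detection p-values fall with the signal, unlike those of these arrays, so they could not test the choice of background inference. Software also included matplotlib 3.10.9, pandas 2.3.3, numpy 2.4.6 and Python 3.11.15.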

Additional observations from a re-analysis of the deposited data

How the results depend on the processing

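Of 164 single-gene values under 9 alternatives, 162 kept their sign and 18 moved beyond the spread between probes of a gene; the exceptions in sign were Tnfrsf17 and Pou2af1 under median scaling, as given. These counts include values that could not move, since averaging over probes, or changing the detection filter for genes detected on every array, repeats the reported value. No replicate could be left out with 1 array per group. No paired analysis was possible because each group has 1 array. The cause of the changes below was not tested.

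For ECRS_KO against ECRS_WT the median of the measured genes, -1.01, was -0.14 under limma's own inference, -0.53 with the authors' deposited values and at a detection p-value under 0.05, and -0.51 with no detection filter, where more dim genes enter. The count at least 2-fold lower, 3, was 0 under limma's own inference and 1 with the authors' values. For ECRS_KO against Control_WT the median, -1.12, was -0.16 under limma's own inference, and the count lower, 4, was 1 there, 2 with the authors' values and 6 with scaling on probes detected on all 3 arrays. Under that scaling 715 of all 9086 genes were also lower, against 515 as reported, and the median of all genes was -0.19. For ECRS_WT against Control_WT the count lower, 1, was 0 under limma's own inference, median scaling, an offset of 50 and the authors' values, and 1 gene was higher under median scaling.

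Of the other B lineage genes for ECRS_KO against ECRS_WT, those lower, 5, were 3 with the authors' values, median scaling or an offset of 50 and 8 with no filter, and the 1 higher was 0 with limma's own inference, the authors' values, the mean of all probes or an offset of 50. For ECRS_KO against Control_WT those lower, 10, were 3 under limma's own inference and 4 with the authors' values, median scaling or an offset of 50; those higher, 0, were 1 under limma's own inference or no filter and 5 under median scaling. For ECRS_WT against Control_WT those higher, 1, were 2 under limma's own inference or no filter, 4 under median scaling and 0 with an offset of 50, probes detected on all 3 arrays or scaling on them; those lower, 1, were 0 under median scaling or an offset of 50 and 2 with scaling on detected probes.

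Median scaling shifted the median of all genes to 0.14 for ECRS_KO against ECRS_WT, 0.26 for ECRS_KO against Control_WT and 0.10 for ECRS_WT against Control_WT, and raised the higher share of all calls to 81.7%, 90.8% and 92.2%, against 66.7%, 54.9% and 72.4%. Under limma's own inference the genes called higher and lower were 143 and 81, 211 and 148, and 108 and 41 in the same order, against 421 and 210, 626 and 515, and 328 and 125. With the authors' values they were 212 and 95, 293 and 221, and 128 and 42. Under an offset of 50 they were 284 and 121, 429 and 250, and 201 and 42, and over probes detected on all 3 arrays 250 and 158, 383 and 387, and 213 and 80. Under median scaling they were 562 and 126, 1272 and 129, and 511 and 43. Tnfrsf17 had a detection p-value of 0.00911 on the array labelled ECRS_KO, close to the limit of 0.01.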

Other observations

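Genes of early B cells in bone marrow were mostly not detected: of 9 with a probe, 2 were measured. Vpreb3, which is expressed in B cell precursors, had signals of 1880 on the array labelled ECRS_KO, 1560 on that labelled ECRS_WT and 2500 on that labelled Control_WT, while Rag1, Rag2 and Dntt, the enzymes that assemble and extend antigen receptor genes, were not detected on any array. The unscaled signal was highest on Control_WT. Between ECRS_WT and Control_WT, 1.43% of all measured genes were at least 2-fold lower on ECRS_WT, and their median was -0.09. Of 10 neutrophil and marrow granulocyte markers 4 were also at least 2-fold lower there (median -0.78), and erythroid markers had a median of -0.74 with 1 of 5 lower. Their summed signals were 62120 on ECRS_WT and 64460 on Control_WT for the neutrophil list and 37460 and 45780 for the erythroid list. Single genes made up most of these sums, Ltf with 36600 and 37700 and Hba-a1 with 35500 and 41700. Whether the Ltf signal came from neutrophils was not tested. S100a9, Camp and Ctsg, the lowest of the neutrophil list, differed by -1.39, -1.33 and -1.31 on the log2 scale, and Slc4a1 of red cells by -1.69. On the neutrophil list 8 genes were below 0, with Ltf at -0.02, and 2 were above, Ngp at 0.61 and Lcn2 at 0.31. The part of these cells in the Vpreb3 difference was not tested.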
